A study of Mus musculus with 9 samples.

Results

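The Nodal pathway and mesendoderm genes described here were chosen by name from the rows of the count table (Nodal, Lefty1, Lefty2, Tdgf1, Gdf3, T, Eomes, Mixl1, Sp5 and Axin2). They are 10 of 30232 gene rows, each of the 10 rows holds 1 symbol, and 9 of the 10 passed a filter on low counts and were tested. RNA was measured by 3' end counting (MARS-seq2.0) in 9 libraries of mouse embryonic stem cells. The study's title concerns binding of the zinc finger protein Gzf1 at the imprinted Dlk1-Dio3 cluster. Gzf1-knockout and wild-type libraries were made from RGM cells in run2, 2 of each genotype. In run1, 3 knockout libraries (replicates 3 to 5) were V6.5 cells, a widely used mouse embryonic stem cell line. The run1 wild-type libraries were 1 of V6.5 cells (replicate 3) and 1 of a Cas9-GFP line (replicate 4). Every library came from cells kept with LIF and serum on a layer of irradiated mouse embryonic fibroblasts, and a depletion step for these came before RNA was prepared. The Gzf1 allele, the number of clones, and whether libraries came from separate cultures are not given in the labels, so p-values cover only library-to-library spread, possibly technical. Cell line and run coincide, so a difference between RGM cells and the run1 lines cannot be told apart from a difference between runs.

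Nodal is a secreted ligand of the TGF-beta family. It signals through activin receptors with the help of a membrane co-receptor, Tdgf1 (also called Cripto), and acts on genes through Smad2, Smad3 and Foxh1. Lefty1 and Lefty2 are targets of the pathway and secreted inhibitors of it, which makes a feedback loop that is active in mouse embryonic stem cells. In the embryo, Nodal and Wnt signals together start the primitive streak, where the transcription factors T (Brachyury), Eomes and Mixl1 appear, and Sp5 and Axin2 are standard targets of Wnt/beta-catenin signalling.

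Library totals were 2568489 to 3704162 counts for the 4 RGM libraries and 4872127 to 7072697 counts for the 5 run1 libraries. Levels are given as CPM (counts scaled to library size after TMM normalization), and 3 counts, taken as the floor, correspond to 0.412 to 1.18 CPM, which covers counting error only. Gzf1 itself was at 1.66 to 14.2 CPM in knockout libraries and 8.11 to 30 CPM in wild-type libraries. These ranges overlap, but each pools RGM and run1 libraries, so the overlap need not hold within a line. With run as a term, the log2 fold change was -1.45 (SE 0.42, unadjusted p = 0.0048, edgeR adjusted p = 0.9998). A 3' tag need not report an edit elsewhere in the gene. All 10 listed markers of embryonic stem cells were detected in every library, and their summed level was 6024 to 6861 CPM in RGM libraries and 4917 to 6301 CPM in run1 libraries.

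In RGM cells the Wnt targets Sp5 and Axin2 and the streak gene T were higher and the Nodal co-receptor Tdgf1 was lower, in knockout and in wild-type libraries alike. Nodal, Lefty1, Lefty2 and Eomes did not pass the threshold in either genotype. Of the 9 tested genes, 4 differed in the knockout libraries, 3 higher and 1 lower in RGM cells, where 25% of all tested genes differed. In the wild-type libraries 5 differed, 3 higher and 2 lower, where 24.4% of all tested genes differed. The comparisons share no library, although all 9 libraries set the estimate of spread, and 4 of the 9 genes passed in both with 1 sign, against 17.4% of all tested genes. T and Sp5 passed the low-count filter through RGM libraries alone, so a difference was built into their being tested. Without them 2 of 7 genes passed in knockout libraries and 3 of 7 in wild-type libraries, against 23.6% and 23.1% of tested genes that were over the cutoff in both lines. With so few genes and such a background these counts are no result about the set. The ranges of 5 of the 9 genes (Tdgf1, T, Eomes, Sp5 and Axin2) did not overlap between the 4 RGM and the 5 run1 libraries, against 38.6% of all tested genes.

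**Figure D1:**
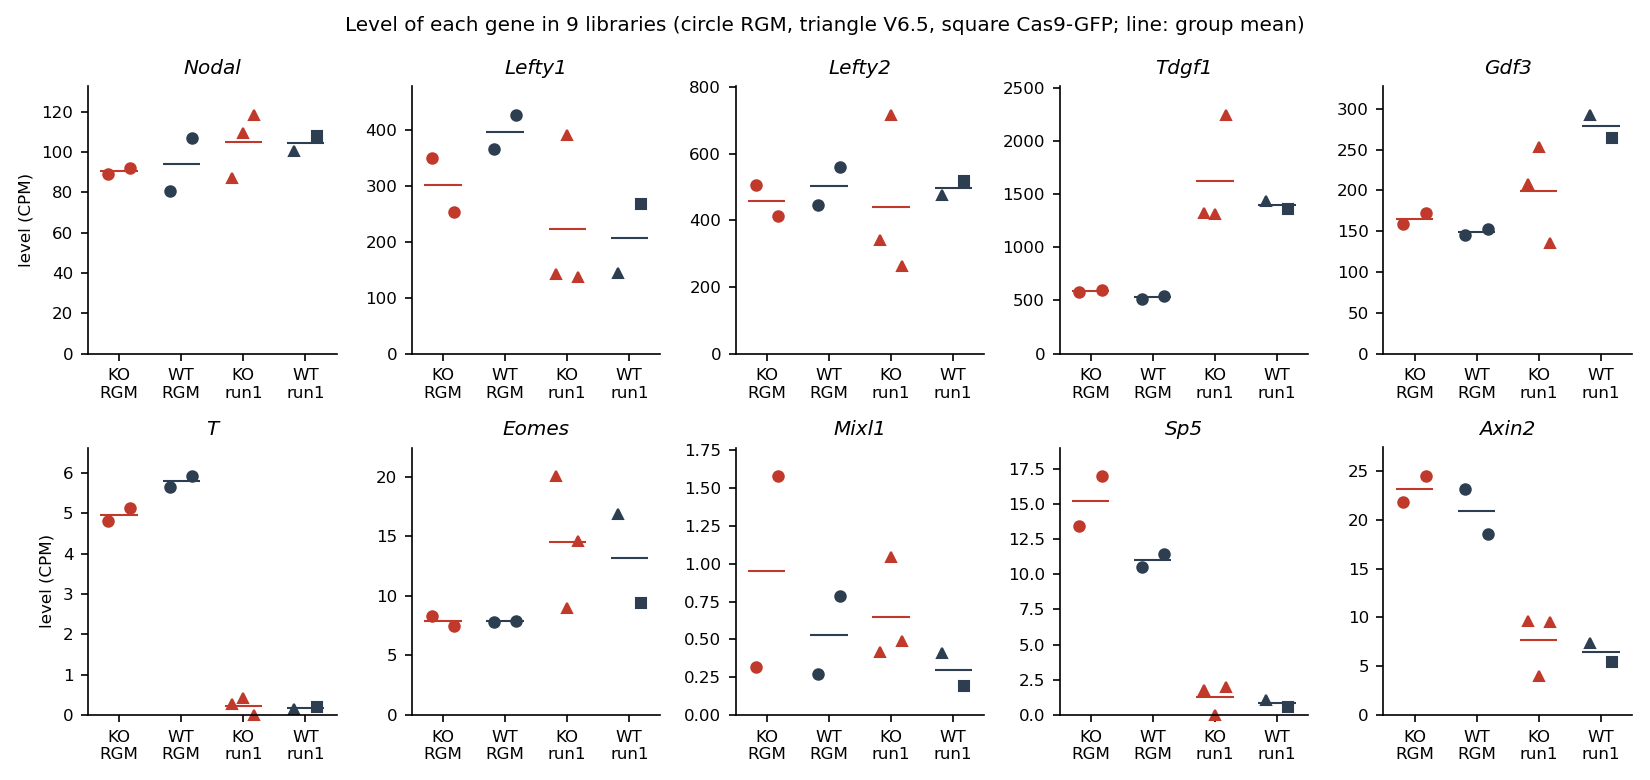
Level of each of the 10 genes in CPM (linear axes from 0), 1 point per library, knockout in red and wild type in dark, RGM left of run1 lines, with lines at group means. Tdgf1 lies at 512 to 598 CPM in the 4 RGM libraries and at 1313 to 2248 CPM in the 5 run1 libraries, and T, Sp5 and Axin2 lie higher in RGM cells.

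Nodal (chromosome 10, 61417972 to 61425338, mm10), the ligand, showed no line difference past the threshold. It was at 89.0 and 92.0 CPM in knockout and 80.9 and 107 CPM in wild-type RGM libraries. The run1 libraries had 87.1, 109 and 119 CPM in knockout libraries 3, 4 and 5 and 101 and 108 CPM in wild-type libraries 3 and 4. The ranges overlap throughout, and the highest library was 1.32 times the lowest in RGM cells and 1.36 times in run1. RGM over run1, the log2 fold change was -0.21 in knockout libraries (SE 0.19, 95% interval -0.64 to 0.21, edgeR adjusted p = 0.45). In wild-type libraries it was -0.16 (SE 0.21, 95% interval -0.61 to 0.30, edgeR adjusted p = 0.62).

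Gdf3 (chromosome 6, 122605403 to 122610087), a TGF-beta family ligand of pluripotent cells that uses the same receptors and co-receptor, passed between lines in wild-type libraries and not in knockout libraries. It was at 159 and 172 CPM in knockout and 146 and 153 CPM in wild-type RGM libraries. Run1 levels were 208, 253 and 136 CPM in knockout libraries 3, 4 and 5 and 293 and 265 CPM in wild-type libraries. Knockout replicate 5 of run1 thus lay below all RGM libraries, and the other 4 run1 libraries lay above them. In wild-type libraries Gdf3 was lower in RGM cells (log2 fold change -0.90, SE 0.24, edgeR adjusted p = 0.019). In knockout libraries the value was -0.27 (SE 0.22, edgeR adjusted p = 0.41), and without knockout replicate 5 it was -0.49 (adjusted p = 0.043). The wild-type call was lost without any 1 of the 4 wild-type libraries, with adjusted p = 0.059 to 0.13.

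Tdgf1 (chromosome 9, 110939603 to 110946158), which encodes the co-receptor, was lower in RGM cells in both genotypes. It was at 582 and 598 CPM in knockout and 512 and 546 CPM in wild-type RGM libraries. Among run1 libraries it reached 1318, 1313 and 2248 CPM in knockout libraries 3, 4 and 5 and 1438 and 1358 CPM in wild-type libraries. No RGM library reached the level of the lowest run1 library, and knockout replicate 5 stood above the others of run1. Tdgf1 was 2.76-fold lower in RGM cells in knockout libraries (log2 fold change -1.46, SE 0.23, edgeR adjusted p = 0.00098) and 2.64-fold lower in wild-type libraries (-1.40, SE 0.24, edgeR adjusted p = 0.0022). Leaving out any 1 of the 9 libraries kept it past the threshold in both genotypes, with log2 fold changes of -1.60 to -1.17 in knockout and -1.45 to -1.36 in wild-type libraries.

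Lefty1 (chromosome 1, 180935022 to 180938400) and Lefty2 (chromosome 1, 180893108 to 180899103) are neighbouring genes separated by 35918 bases, and both encode secreted inhibitors of Nodal. Lefty1 was at 351 and 253 CPM in knockout and 367 and 428 CPM in wild-type RGM libraries. The run1 libraries had 143, 391 and 138 CPM in knockout libraries 3, 4 and 5 and 144 and 269 CPM in wild-type libraries. Knockout replicate 4 and wild-type replicate 4 of run1 lay within the RGM range, and the other 3 run1 libraries lay below it. Lefty2 was at 505 and 412 CPM in knockout and 445 and 560 CPM in wild-type RGM libraries. Run1 levels were 342, 717 and 262 CPM in knockout libraries and 475 and 518 CPM in wild-type libraries. The run1 range of Lefty2 spans that of the RGM libraries.

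Both genes varied among the 3 V6.5 knockout libraries. The highest of these, replicate 4, was 2.84 times the lowest, replicate 5, for Lefty1 and 2.74 times for Lefty2, whereas the 4 RGM libraries spanned 1.69 times and 1.36 times. Neither gene passed the threshold between lines with the low-count filter. Without the filter Lefty1 passed in wild-type libraries (0.93, edgeR adjusted p = 0.00030). RGM over run1, Lefty1 had a log2 fold change of 0.44 in knockout (SE 0.41, edgeR adjusted p = 0.47) and 0.95 in wild-type libraries (SE 0.46, edgeR adjusted p = 0.15). Lefty2 had 0.06 in knockout (SE 0.33, edgeR adjusted p = 0.92) and 0.02 in wild-type libraries (SE 0.37, edgeR adjusted p = 0.98). Without knockout replicate 4 the knockout libraries gave 1.10 for Lefty1 (adjusted p = 0.0086) and 0.60 for Lefty2 (adjusted p = 0.032), both higher in RGM cells. The wild-type value of Lefty1 passed too without that library (0.94, adjusted p = 0.015).

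The balance of the pair is given as a description, since the ratio was chosen after the values were seen. The ratio of Lefty1 to Lefty2 counts was 0.695 and 0.615 in knockout and 0.825 and 0.765 in wild-type RGM libraries. In run1 it was 0.419, 0.546 and 0.526 in knockout and 0.303 and 0.519 in wild-type libraries. All 4 RGM libraries lay above all 5 run1 libraries. The ratio averaged 0.725 ± 0.0908 (SD, n = 4) in RGM and 0.463 ± 0.102 (SD, n = 5) in run1 libraries. By genotype it averaged 0.56 ± 0.103 in knockout (SD, n = 5) and 0.603 ± 0.24 in wild-type libraries (SD, n = 4). Levels of 38.6% of all tested genes likewise did not overlap between the lines. That share is for single genes, and a share for ratios of gene pairs was not computed. No test of the ratio is given. The longest annotated transcripts of the genes share 47% of bases in an alignment of their last 300 bases, with no identical run longer than 7 bases. Over the whole transcripts they share 56.2%, with an identical run of 140 bases, and the handling of reads shared by genes is not stated in the labels.

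**Figure D2:**
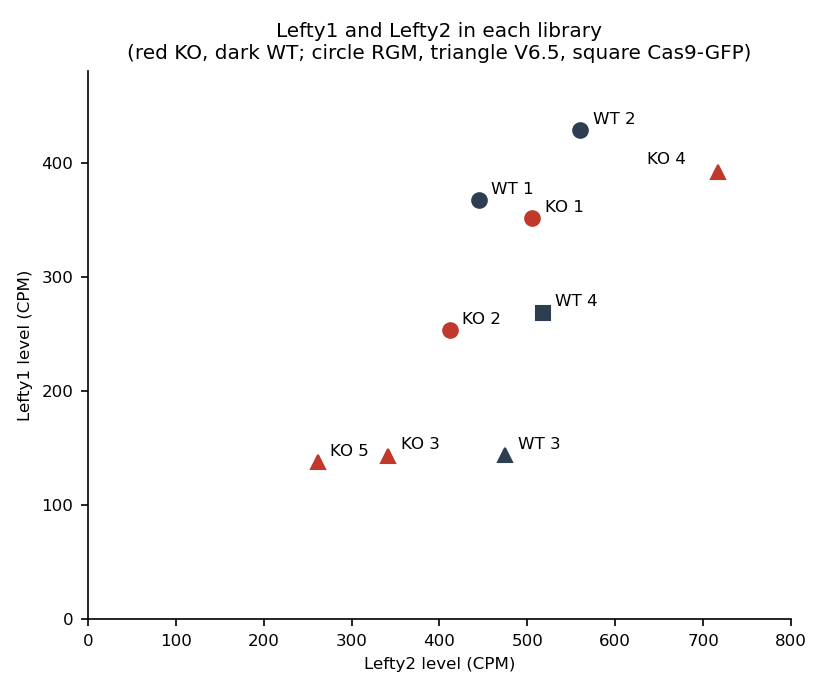
Lefty1 level against Lefty2 level (CPM, linear axes from 0), 1 point per library, knockout in red and wild type in dark. The RGM libraries (circles) hold more Lefty1 for their Lefty2 than the run1 libraries, and knockout replicate 4 has the highest Lefty2 level, at 717 CPM.

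T (chromosome 17, 8434423 to 8442496), the Brachyury transcription factor of the primitive streak, was counted at low level in RGM cells and hardly at all in run1. Its raw counts were 15 and 13 in knockout and 21 and 15 in wild-type RGM libraries. In run1 they were 2, 2 and 0 in knockout and 1 and 1 in wild-type libraries, at or below the floor of 3 counts, although these libraries were deeper. As levels this was 4.80 to 5.92 CPM in RGM and 0 to 0.418 CPM in run1 libraries. The pooled counts were 22.4 times higher in RGM cells in knockout libraries (28 against 4 counts, 95% exact counting interval 7.85 to 88.0). In wild-type libraries they were 36.3 times higher (36 against 2 counts, 9.34 to 311). Both intervals cover counting error alone and leave out the spread between libraries. The fitted log2 fold changes were 4.33 in knockout (SE 0.66, edgeR adjusted p = 0.00092) and 4.97 in wild-type libraries (SE 0.77, edgeR adjusted p = 0.0013). T was over the low-count cutoff in RGM libraries alone. A difference was thus built into its being tested, here and in the fits without 1 library. T passed in every fit without 1 library in which it could be tested, and without RGM knockout replicate 1 or 2 it fell under the low-count filter.

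Sp5 (chromosome 2, 70474923 to 70477729), a zinc finger transcription factor that Wnt/beta-catenin signalling induces, was also higher in RGM cells. Its raw counts were 42 and 43 in knockout and 39 and 29 in wild-type RGM libraries. In run1 they were 13, 0 and 12 in knockout libraries 3, 4 and 5 and 8 and 3 in wild-type libraries. These correspond to 10.5 to 17.0 CPM in RGM and 0 to 1.97 CPM in run1, with the count of 0 in knockout replicate 4. The log2 fold change, RGM over run1, was 3.49 in knockout (SE 0.62, edgeR adjusted p = 0.0022) and 3.63 in wild-type libraries (SE 0.76, edgeR adjusted p = 0.0057). Sp5 too was over the low-count cutoff in RGM libraries alone, so a difference was built into its being tested. Without the Cas9-GFP library the wild-type value was 3.28 and its adjusted p 0.056.

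Axin2 (chromosome 11, 108920349 to 108950783), a Wnt target that encodes a scaffold of the complex degrading beta-catenin, was higher in RGM cells in both genotypes. It was at 21.8 and 24.5 CPM in knockout and 23.2 and 18.5 CPM in wild-type RGM libraries. Among run1 libraries it reached 9.68, 3.97 and 9.51 CPM in knockout libraries 3, 4 and 5 and 7.42 and 5.47 CPM in wild-type libraries. All RGM libraries lay above all run1 libraries, and knockout replicate 4 was the lowest. Axin2 was 2.95-fold higher in RGM cells in knockout (log2 fold change 1.56, SE 0.36, edgeR adjusted p = 0.0086) and 3.22-fold higher in wild-type libraries (1.69, SE 0.41, edgeR adjusted p = 0.011). The knockout call was lost without knockout replicate 1 or 2 (adjusted p = 0.056 and 0.080) and the wild-type call without wild-type replicate 1, 2 or 4 (0.10, 0.050 and 0.084). An annotated antisense transcript overlaps Axin2, and another overlaps Eomes, and the sources used here do not give the handling of strand.

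Because T, Sp5 and Axin2 were higher together, the 250 bases before their annotated starts are given here, gene strand, 5' to 3', from RefSeq (GRCm38.p6). Capitals mark TCF/LEF motifs, the sites of the factors that bring beta-catenin to DNA, searched on both strands in 4 spellings. The first was CTTTGAA, the next was CTTTGAT, another was CTTTGTA, and the last was CTTTGTT.
T, chr17:8434173-8434422, plus strand: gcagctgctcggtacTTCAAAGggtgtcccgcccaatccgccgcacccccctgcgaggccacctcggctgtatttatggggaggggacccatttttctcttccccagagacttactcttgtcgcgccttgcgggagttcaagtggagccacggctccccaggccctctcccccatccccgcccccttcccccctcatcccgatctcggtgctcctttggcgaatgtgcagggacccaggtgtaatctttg
Sp5, chr2:70474673-70474922, plus strand: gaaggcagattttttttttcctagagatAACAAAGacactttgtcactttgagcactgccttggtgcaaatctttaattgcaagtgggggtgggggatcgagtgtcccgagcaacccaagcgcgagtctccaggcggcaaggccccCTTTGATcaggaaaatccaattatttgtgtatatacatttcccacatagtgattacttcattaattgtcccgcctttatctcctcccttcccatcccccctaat
Axin2, chr11:108920099-108920348, plus strand: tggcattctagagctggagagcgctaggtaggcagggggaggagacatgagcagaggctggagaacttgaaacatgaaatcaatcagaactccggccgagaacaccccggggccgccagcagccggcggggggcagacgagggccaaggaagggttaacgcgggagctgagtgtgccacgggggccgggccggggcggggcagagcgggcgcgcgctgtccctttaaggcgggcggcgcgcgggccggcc

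The Sp5 window held 2 such motifs, 222 to 216 and 104 to 98 bases before the start, and 1.43% of 32851 promoter windows of that length hold 2 or more. The T window held 1, 235 to 229 bases before the start, as did the Nodal window at 242 to 236, and 14.8% of all windows hold at least 1. The windows of Axin2, Tdgf1 and Eomes held 0, which says only that these letters are not in them. Of the 6 members with an entry, 0 held the FOXH1 motif AATCCAC (2.1% of all windows) or the SMAD motif CAGACA (17.1%). Lefty1, Lefty2, Gdf3 and Mixl1 had no entry. A match in a window is a description and not a binding site.

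Eomes and Mixl1, the remaining streak transcription factors, did not pass between lines. Eomes (chromosome 9, 118478212 to 118486132) was at 8.33 and 7.50 CPM in knockout and 7.82 and 7.89 CPM in wild-type RGM libraries. The run1 libraries had 20.0, 8.98 and 14.6 CPM in knockout libraries 3, 4 and 5 and 16.9 and 9.42 CPM in wild-type libraries. Every RGM library lay below every run1 library, without overlap. The log2 fold change was -0.88 in knockout (SE 0.41, edgeR adjusted p = 0.13) and -0.75 in wild-type libraries (SE 0.43, edgeR adjusted p = 0.22), so neither passed. Without knockout replicate 4 the knockout value was -1.13 and passed (adjusted p = 0.033).

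Mixl1 (chromosome 1, 180693043 to 180697034), a homeobox gene of the streak, was the member under the low-count filter. Its raw counts were 1 and 4 in knockout and 1 and 2 in wild-type RGM libraries. In run1 they were 3, 5 and 3 in knockout and 3 and 1 in wild-type libraries. These counts lie at or near the floor everywhere. On the log2(CPM + 1) scale, an exact two-sided permutation gave p = 0.4 for RGM minus run1 (difference 0.20) and p = 0.25 for knockout minus wild type (difference 0.31), where 60 arrangements allow no p under 0.017.

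**Figure D3:**
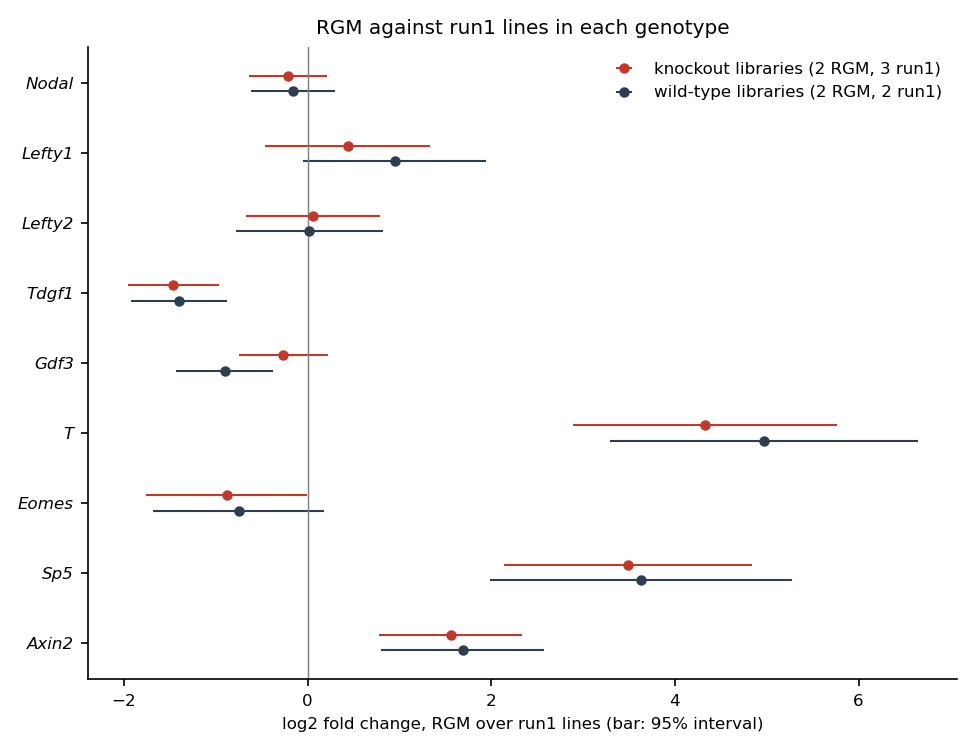
Log2 fold change of RGM over run1 lines for the 9 tested genes, in knockout libraries (red, 2 against 3) and wild-type libraries (dark, 2 against 2), with bars for 95% intervals. T, Sp5 and Axin2 lie right of 0 and Tdgf1 left of 0 in both genotypes, with T at 4.33 and 4.97.

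Fibroblast markers moved with line as well. Of 25 tested feeder markers, 12 were higher and 0 lower in RGM cells in knockout libraries and 10 were higher and 0 lower in wild-type libraries, with medians of 0.84 and 0.81 on the log2 scale against medians of -0.02 and -0.01 over all tested genes. Of all tested genes 12.6% were higher and 12.4% lower in knockout libraries, and 12.1% and 12.3% in wild-type libraries. The summed level of the markers was 4415 to 6719 CPM in RGM and 2544 to 3622 CPM in run1 libraries, and 1 of the 26 markers, Lum, was at 0 in 1 library (wild-type replicate 3). Of the 10 embryonic stem cell markers, 1 was higher and 1 lower in RGM cells in each genotype, and the other 8 did not pass. Zfp42, a zinc finger gene of pluripotent cells, was higher in RGM cells (log2 fold change 3.14 in knockout and 3.49 in wild-type libraries), and Klf4, a pluripotency factor, was lower (-1.36 and -1.09). In bulk RNA, fewer cells of a type and less RNA per cell cannot be told apart, and the part of feeder cells or of cell state in the differences of T, Sp5, Axin2 and Tdgf1 was not tested.

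Other genes of the Nodal and activin pathway came from a list of 29. Of the 26 tested, 3 were higher and 7 lower in RGM cells in knockout libraries, and 3 were higher and 3 lower in wild-type libraries, with medians of -0.17 and -0.10 on the log2 scale. In either direction 25% of all tested genes passed in knockout libraries and 24.4% in wild-type libraries, with medians of -0.02 and -0.01. The same 3 higher and 3 lower genes passed in both genotypes. Cfc1, a co-receptor related to Tdgf1, was higher in RGM cells, with log2 fold changes of 3.42 in knockout (SE 0.39, edgeR adjusted p = 0.00015) and 3.09 in wild-type libraries (SE 0.45, edgeR adjusted p = 0.00088). It was at 14.1 and 18.2 CPM in knockout and 12.9 and 13.8 CPM in wild-type RGM libraries, against 1.66, 1.46 and 1.31 CPM in knockout and 1.10 and 2.07 CPM in wild-type run1 libraries. Like T, it was over the low-count cutoff in RGM libraries alone. Without Cfc1, 2 of 25 were higher and 7 lower in knockout libraries, and 2 were higher and 3 lower in wild-type libraries. Of tested genes over the cutoff in both lines, 23.6% and 23.1% passed.

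Gdf1, a ligand that partners Nodal, was higher in RGM cells by 2.07 in knockout (SE 0.36) and 2.18 in wild-type libraries (SE 0.42) on the log2 scale, and Tgif2, a repressor that binds Smad proteins, by 1.01 (SE 0.19) and 0.79 (SE 0.21). Pcsk6, a convertase that matures Nodal, was lower by log2 fold changes of -2.26 (SE 0.40) and -1.45 (SE 0.41). Pmepa1, a target and inhibitor of TGF-beta signalling, had -1.08 (SE 0.20) and -1.31 (SE 0.22), and Nomo1, a Nodal modulator, -0.88 (SE 0.18) and -0.90 (SE 0.20). The edgeR adjusted p of these 5 genes was 0.0018 to 0.025. Tgif1 and Drap1, which restrain Smad2 and Foxh1 activity, had values of -0.06 to 0.23 and did not pass. The rows of Tgif1, Tgif2 and Ctnnb1 are merged with another symbol.

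Of 37 tested Wnt pathway genes from a list of 45, 7 were higher and 6 lower in RGM cells in knockout libraries and 7 were higher and 5 lower in wild-type libraries, against 25% and 24.4% of all tested genes in either direction. The medians of the list were 0.22 and 0.27, against -0.02 and -0.01 over all tested genes. Wnt3, a ligand of the streak, had log2 fold changes of 3.83 (SE 0.59, edgeR adjusted p = 0.00092) and 3.18 (SE 0.64, edgeR adjusted p = 0.0045), from levels of 2.97 to 6.31 CPM in RGM and 0.277 to 0.55 CPM in run1 libraries, and it too was over the low-count cutoff in RGM libraries alone. Without Wnt3, 6 of 36 were higher and 6 lower in knockout libraries, and 6 were higher and 5 lower in wild-type libraries. Of tested genes over the cutoff in both lines, 23.6% and 23.1% passed. Lef1, a factor of the family that binds the motif above, had 2.63 (SE 0.41, edgeR adjusted p = 0.001) and 3.00 (SE 0.50, edgeR adjusted p = 0.002), and the receptor Fzd2 had 1.22 (SE 0.36) and 1.87 (SE 0.41).

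Notum, a Wnt target that encodes a secreted inhibitor of Wnt ligands, was at 7.05 and 11.1 CPM in knockout and 9.70 and 10.7 CPM in wild-type RGM libraries. Run1 levels were 69.8, 124 and 21.0 CPM in knockout and 55.9 and 82.0 CPM in wild-type libraries, so it was lower in RGM cells (log2 fold changes -2.99, SE 0.64, and -2.76, SE 0.65). Porcn, the acyltransferase of Wnt ligands, had -1.73 (SE 0.38) and -2.11 (SE 0.41), and Sfrp1, a secreted Wnt antagonist, -1.80 (SE 0.17) and -1.69 (SE 0.18), all past the threshold in both genotypes. Ctnnb1, which encodes beta-catenin, had -0.23 (SE 0.15, edgeR adjusted p = 0.27) and -0.34 (SE 0.16, edgeR adjusted p = 0.14).

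Of 32 other mesendoderm genes 19 passed the filter. In knockout libraries 6 were higher and 2 lower in RGM cells and in wild-type libraries 5 were higher and 3 lower, against 25% and 24.4% of all tested genes in either direction. The medians of the list were 0.45 and 0.20, against -0.02 and -0.01 over all tested genes. Fgf8, a growth factor of the streak, had log2 fold changes of 3.5 (SE 0.56) and 2.63 (SE 0.64), Snai1, a repressor of epithelial genes, 1.80 (SE 0.26) and 2.05 (SE 0.31), Otx2, a homeobox factor of the epiblast, 1.73 (SE 0.45) and 2.04 (SE 0.53), and Bmp4, a ligand, 0.80 (SE 0.23) and 0.85 (SE 0.26). Fgf4, a ligand that embryonic stem cells secrete, was lower (-1.22, SE 0.22, and -1.34, SE 0.23). These 5 genes passed in both genotypes, with edgeR adjusted p of 0.00067 to 0.033.

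**Figure D4:**
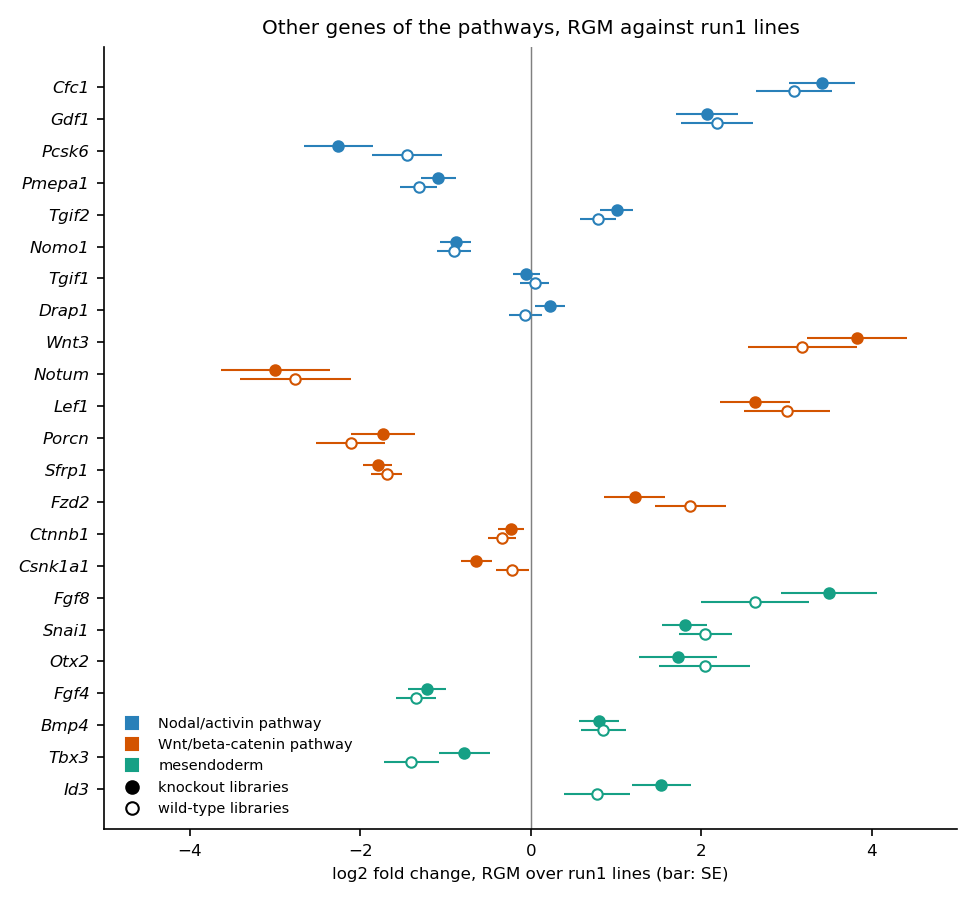
Log2 fold change of RGM over run1 lines for named genes of the Nodal/activin pathway (blue), Wnt/beta-catenin pathway (orange) and mesendoderm (green), filled for knockout and open for wild-type libraries, with bars for the SE. Cfc1 lies right of 0 at 3.42 and 3.09, and Notum left of 0 at -2.99 and -2.76.

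Between genotypes 0 of the 9 tested genes passed the threshold, in all libraries with run as a term, in RGM cells or in run1. Of all tested genes 0.0316% passed over all libraries, 0% in RGM cells and 0.0158% in run1. At an unadjusted p under 0.05 the numbers were 293, 104 and 485. Evenly spread p-values would put a share of 0.05 of the 12645 tested genes there, more than any of these numbers. The edgeR tests thus gave few small p-values in these comparisons, and the cause was not tested. DESeq2 likewise called 0 of the 9 genes in each of these comparisons, and 1 of them had an unadjusted p under 0.05 in edgeR, Gdf3 in run1. Log2 fold changes, knockout over wild type, lay between -0.21 (Gdf3) and 0.52 (Sp5) over all libraries, with 4 positive, 5 negative and a median of -0.02 against 0.01 over all tested genes. Over all libraries the ranges of 0 of the 9 genes stayed apart, against 0.443% of tested genes. Both genotypes hold RGM and run1 libraries, so a gene with ranges apart between lines must overlap between genotypes. That fixed the outcome for 5 of the 9 genes and for 38.6% of tested genes, so these counts say nothing of a knockout effect there.

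Nodal had a log2 fold change of -0.02 (SE 0.14), with a 95% interval of -0.31 to 0.27, from means of 99.2 ± 14 CPM in knockout (SD, n = 5) and 99.2 ± 12.6 CPM in wild-type libraries (SD, n = 4). Tdgf1 had 0.19 (SE 0.15, interval -0.14 to 0.52), Gdf3 -0.21 (SE 0.18, interval -0.58 to 0.17), Lefty2 -0.16 (SE 0.24, interval -0.68 to 0.37) and Lefty1 -0.12 (SE 0.32, interval -0.81 to 0.58). All of these intervals cover 0. Axin2 had 0.21 (SE 0.26, interval -0.34 to 0.76), Eomes 0.10 (SE 0.27, interval -0.49 to 0.68), Sp5 0.52 (SE 0.46, interval -0.46 to 1.5) and T -0.10 (SE 0.47, interval -1.10 to 0.91).

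In RGM cells Gdf3 had a log2 fold change of 0.15 (SE 0.25, edgeR adjusted p = 1) and in run1 of -0.49 (SE 0.22, unadjusted p = 0.043, edgeR adjusted p = 0.9995). Both knockout RGM libraries lay above both wild-type RGM libraries, and all 3 knockout run1 libraries lay below both wild-type run1 libraries. The difference of the effects was 0.64 (SE 0.33, unadjusted p = 0.075 in edgeR's quasi-likelihood test, adjusted p = 1), so it did not pass. In RGM cells the ranges of 5 of the 9 genes stayed apart (Tdgf1, Gdf3 and Sp5 higher, Lefty1 and T lower in knockout), against 34.6% of tested genes for 2 libraries against 2. In run1 those of 1 gene did, Gdf3, against 13.5%.

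**Figure D5:**
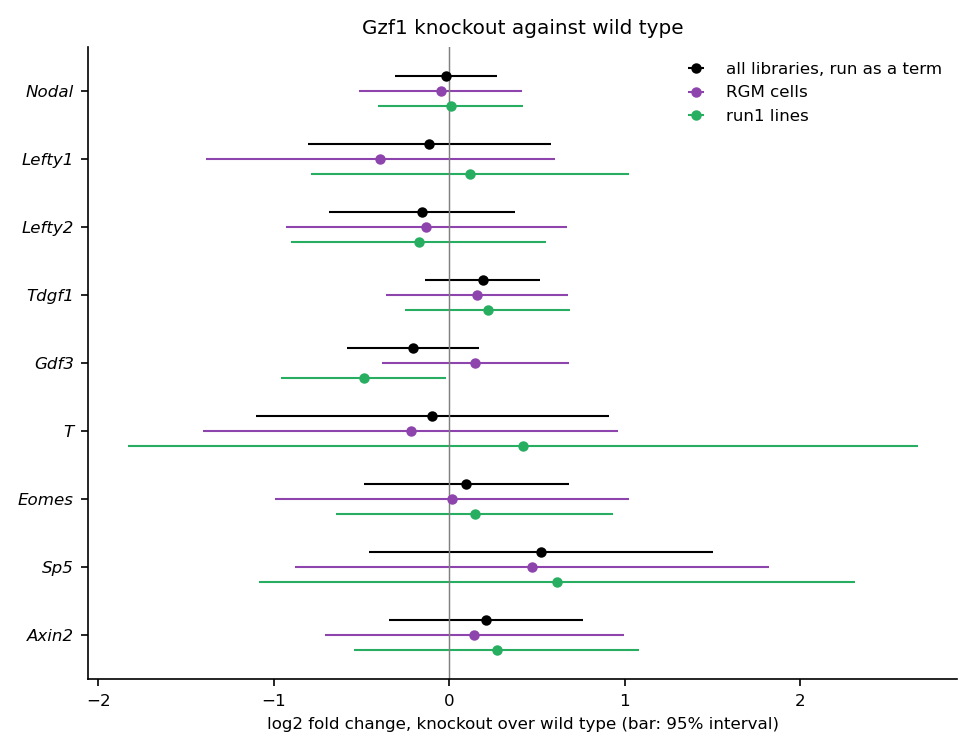
Log2 fold change of Gzf1 knockout over wild type for the 9 tested genes, over all libraries (black), in RGM cells (purple) and in run1 lines (green), with bars for 95% intervals. Each interval over all libraries and within RGM cells covers 0, and that of Gdf3 in run1 ends just under 0.

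Of the other pathway genes 0 passed between genotypes over all libraries, among 26 Nodal and activin genes, 37 Wnt genes and 19 mesendoderm genes. Their median log2 fold changes were 0.14, 0.09 and 0.06. Lef1 had 0.94 (SE 0.31, edgeR adjusted p = 0.9998), at 50.6 and 55.3 CPM in knockout and 35.9 and 26.0 CPM in wild-type RGM libraries. Among run1 libraries it reached 14.4, 4.80 and 5.90 CPM in knockout and 2.61 and 5.28 CPM in wild-type libraries, where the ranges overlap. Bmp4 had 0.45 (SE 0.17) and Snai1 0.45 (SE 0.20), neither past the threshold. Fibroblast markers had a median of 0.16, with 0 of 25 past the threshold.

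Profiles over the 9 libraries were compared as log2(CPM + 0.5), centred on each gene's mean. The genes most like Nodal were Larp4b (a row merged with mKIAA0217), Spg21 and Nbr1, with root mean square differences of 0.0857, 0.0864 and 0.0928. Nodal itself varied with an SD of 0.184 on that scale, a small spread. The genes most like T were Gm12504, Zfp42 and Cap1, at 0.23, 0.251 and 0.308, where T varied with an SD of 1.65. The run1 levels of T, 0 to 0.418 CPM, lie under the 0.5 added. The added value therefore shrinks the line difference of T on this scale, and the SD and ranking for T depend on it. Gm12504 was at 154 to 199 CPM in RGM and 15.7 to 26.8 CPM in run1 libraries. Likeness was taken among 9298 genes of at least 10 CPM and follows the split between lines.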

How the data were processed

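The authors deposited 1 table of raw counts per gene symbol, whole numbers with a different total per library. Per the submitters' processing notes, which give no version, STAR, DESeq2 and the build mm10 were used. The sources used here do not state the counter, annotation, strand setting or use of molecular identifiers. Of 30324 rows, 92 synthetic spike-in rows (1 count in all) were left out. A low-count filter (edgeR's filterByExpr by genotype, minimum count 10) left 12645 genes. They were scaled by TMM, and edgeR 4.0.16 under R 4.3.3 gave robust quasi-likelihood tests. The design held run and genotype for the knockout effect and 4 groups of genotype by run for the other comparisons. Adjusted p-values are Benjamini-Hochberg over all tested genes, threshold 0.05. The SE is the absolute log2 fold change over the square root of F, and intervals use the t distribution at 95%. The script was tested on simulated counts. DESeq2 1.42.0, RLE scaling, no filter, a replicate block and leaving out each library were the alternatives. Replicate numbers were not taken to pair samples in the main tests. Deviations from group means correlated at -0.067 for numbers 1 and 2, 0.30 for number 3 and 0.34 for number 4. Variation shared by number in run1 is thus not modelled in those tests, and the replicate block is the alternative that does so. No 2 replicates agreed within sampling noise, and RGM pairs came closer to it than run1 pairs. By chi-square over degrees of freedom, RGM replicates gave 2.48 (wild type) and 3.10 (knockout). Run1 replicates gave 13.8 (wild type, V6.5 against Cas9-GFP) and 21.9 to 24.0 (knockout, all V6.5). Run1 libraries were also deeper, and the part of depth in this contrast was not tested. The main tests took 1 estimate of spread per gene from all 9 libraries, although spread differed between runs. Positions are from GENCODE M21 (mm10). The 10 genes and all lists were chosen with earlier results of these data known. Named list genes are those past the threshold with 1 sign in both line comparisons (up to 6 by size) and the 2 most highly counted of the rest, of which the report gives a part. In the mesendoderm and extraembryonic lists a few genes outside this rule are named beside them.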

Additional observations from a re-analysis of the deposited data

Results flagged for a closer look

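Gdf3 is listed because its knockout libraries lay on opposite sides of the wild-type libraries in RGM cells and in run1, although neither effect passed the threshold. Both knockout RGM libraries lay above both wild-type RGM libraries, and all 3 knockout run1 libraries lay below both wild-type run1 libraries. Ranges stayed apart in this way for 34.6% of tested genes in RGM cells and 13.5% in run1, in either direction. The log2 fold change was 0.15 in RGM cells (95% interval -0.38 to 0.68, edgeR adjusted p = 1) and -0.49 in run1 (95% interval -0.96 to -0.02, edgeR adjusted p = 0.9995). The difference of the knockout effects, RGM minus run1, was 0.64 on the log2 scale (SE 0.33, unadjusted p = 0.075 and adjusted p = 1 in edgeR).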

How the results depend on the processing

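The count of the 10 genes past the threshold between genotypes was 0 under all alternatives run. Between lines it was 4 in knockout libraries and 5 in wild-type libraries, and with RLE scaling or DESeq2 the counts were equal. Leaving out 1 library gave 2 to 7 and 2 to 6. No low-count filter gave 6 in wild-type libraries, where Lefty1 had 0.93 (adjusted p = 0.00030). All tested genes called between genotypes numbered 4, and 7 in DESeq2, 35 without the filter and 2 to 4 without 1 library. In RGM cells they numbered 0, and 2 in DESeq2, 7 without the filter, 9 in a fit to RGM libraries alone and 0 to 1 without 1 library. In run1 they numbered 2, and 4 in DESeq2, 46 without the filter, 1 in a fit to run1 libraries alone and 0 to 8 without 1 library. For the difference of the effects there were 0 in edgeR and DESeq2 (182 at an unadjusted p under 0.05), and 1 without the filter. Between lines 3160 genes passed in knockout libraries (892 to 3531 without 1 library) and 3081 in wild-type libraries (883 to 4087). Values near 0 changed sign. Eomes in RGM cells had -0.021 without the filter, and Lefty2 between lines in wild-type libraries had -0.0080 without it. Ranges without 1 library, knockout over wild type over all libraries, were -0.078 to 0.061 for Nodal, -0.47 to 0.022 for Lefty1 and -0.10 to 0.31 for Eomes. In RGM cells they were -0.24 to 0.15 for Nodal, -0.29 to 0.035 for Lefty2, -0.07 to 0.084 for Eomes and -0.015 to 0.32 for Axin2. In run1 they were -0.085 to 0.13 for Nodal, -0.55 to 0.64 for Lefty1, -0.72 to 0.10 for Lefty2, -0.082 to 0.35 for Tdgf1, -0.084 to 0.96 for T and -0.21 to 0.63 for Eomes. Between lines they were -0.22 to 0.60 for Lefty2 in knockout and -0.14 to 0.17 in wild-type libraries, and -0.36 to 0.031 for Nodal in wild-type libraries. The cause was not tested. With the replicate number as a block, 6 genes passed between genotypes, 0 in RGM cells, 2 in run1 and 0 for the difference, and in run1 Nodal had -0.10 and Tdgf1 -0.087. Deviations of samples with the same number correlated at -0.067 (numbers 1 and 2, the same value by construction), 0.30 (3) and 0.34 (4). The block could not be fitted between lines, since a number lies within 1 run. A pseudocount of 0.5 gave Mixl1 differences of 0.44 and 0.28. With 2 or 3 libraries a group and at most 2 counts of T in a run1 library, small differences of T, Sp5 and Mixl1 were not detectable at this depth.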

Other observations

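Markers of extraembryonic and neural cells gave calls between lines. Of 8 tested genes from a list of 12, 4 were higher and 2 lower in RGM cells in knockout libraries and 3 were higher and 1 lower in wild-type libraries, against 25% and 24.4% of all tested genes in either direction. Pax6 was over the low-count cutoff in RGM libraries alone and Sox1 in run1 libraries alone, so a difference was built into their being tested. Without them 3 of 6 were higher and 1 lower in knockout libraries and 2 were higher and 1 lower in wild-type libraries, against 23.6% and 23.1% of tested genes over the cutoff in both lines. Dab2, an adaptor protein gene of primitive endoderm, had log2 fold changes of 2.87 in knockout and 3.63 in wild-type libraries. The list's other genes of primitive endoderm gave no such call. Gata4 had 0.45 and -0.24 and did not pass, and Sox17 and Gata6 were under the low-count filter. Sox17 was at 0.27 to 0.79 CPM in RGM and 1.37 to 5.01 CPM in run1 libraries. Gata6 was at 1.18 to 2.16 CPM in RGM and 0.94 to 14.4 CPM in run1 libraries. Pax6, a transcription factor of neural progenitors whose row is merged with 2 other symbols (AK047243 and AK080416), had 2.83 and 2.44, and Tubb3, a tubulin of neurons, had -1.26 and -1.84. The summed level of the list was 146 to 165 CPM in RGM libraries and 138 to 231 CPM in run1 libraries, so the sums overlap.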
